A study of Mus musculus with 15 samples.

Results

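The machinery that takes newly made proteins into the endoplasmic reticulum (ER), attaches glycans to them and packs them into transport vesicles was followed through 54 genes of the mouse liver transcriptome. The members were the rows of the deposited expression table whose symbols stood on a list of 54 names, and all 54 were found among its 17527 genes. They comprised 6 genes of the signal recognition particle (SRP) and its receptor, 5 of the translocon, 4 of the translocon-associated protein (TRAP) complex, 5 of the signal peptidase, 7 of the oligosaccharyltransferase, 11 of the COPII coat, 7 of the COPI coat and 9 cargo and retrieval receptors. RNA was sequenced from 15 livers, 5 in each of 3 groups. BBBPH mice were fed a high-fat, high-sucrose diet for 20 weeks and from week 12 were given 150 mg/kg of Biotransformed Bear Bile Powder by mouth each day. The dosed group is labelled as 14 mice, of which 5 livers were sequenced. Model mice had the same diet, which induces nonalcoholic steatohepatitis (NASH), and received saline in place of the powder. In that diet fat gave 60% of the energy, protein 20% and carbohydrate 20%, and cholesterol made up 0.2%. The drinking water of both groups held 42 g/L of sugar, of which 55% was sucrose and 45% was fructose by weight. Control mice are labelled as control only; their diet and any gavage are not given in the sources used here, nor are the strain, sex and age of any group.

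Hepatocytes secrete most proteins of the blood plasma, and nearly all of these pass through this machinery. The SRP binds the signal peptide of a protein still on the ribosome and docks at its receptor in the ER membrane; the Sec61 channel lets the chain through, signal peptidase cuts the signal off, and the oligosaccharyltransferase moves a preassembled glycan from dolichol to asparagine residues. COPII coats then bud vesicles from the ER with cargo held by receptors, while COPI coats carry escaped ER residents and receptors back. When unfolded proteins build up in the ER, the unfolded protein response raises transcription of many of these genes, in part through the factor Xbp1.

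Values are the authors' FPKM, fragments counted in a gene scaled by its length and by the depth of the library, in 1 library per liver. Libraries are listed by their replicate labels throughout, in the order 2_1, 2_2, 3_1, 3_2 and 3_4 for BBBPH, 1_1, 1_4, 2_1, 2_3 and 3_4 for model and 1_1, 1_5, 2_1, 2_2 and 3_4 for control. Depth recovered from the values was 35395712 to 39624160 fragments per library, and 1 fragment in a gene of 1 kilobase was worth 0.0252 to 0.0283 FPKM. Hepatocyte markers dominated every library, with Alb at 36890 to 43647 FPKM in BBBPH, 21144 to 39796 in model and 41988 to 50923 in control libraries. Of the 8 hepatocyte markers 0 were at 0 in any library, and 4 were called lower in model than control libraries. Single libraries stood apart in genes of other tissues or states. BBBPH 2_2 held 978 FPKM of the pancreatic gene Ctrb1, against at most 0.905 elsewhere, Saa2, which rises in the acute-phase response, was at 15000 FPKM in model 1_4 and at most 194 elsewhere, and control 2_1 held 70 FPKM of the muscle gene Tnnt3, against at most 0.145 elsewhere. The summed FPKM of 14 pancreatic acinar markers reached 5028 in BBBPH 2_2 and was at most 27.1 in any other library, and 13 of the 14 markers were at 0 in at least 1 library. Of 10 stellate cell and fibroblast markers 9 were called higher in model than control libraries, and their summed level was 148 to 162 FPKM in BBBPH, 164 to 205 in model and 125 to 148 in control libraries. Of 9 plasma and B cell markers in the table, those that passed the filter on level numbered 3, and 1 of these, Derl3, was called higher in the model. Jchain and Sdc1 were not called in model against control, at log2 fold changes of -0.11 and -0.12. The summed level of the 9 markers was 47.1 to 58.03 FPKM in BBBPH, 61.9 to 90.7 in model and 58.7 to 67.3 in control libraries. Most of that sum was Sdc1, with means of 45.0, 55.2 and 59.4 FPKM in BBBPH, model and control libraries. Derl3 averaged 2.53, 11.3 and 0.654 FPKM in the same order. Tnfrsf17 was at 0 in 11 of the 15 libraries. Macrophage markers had 3 of 10 called higher in the model, Cd68, Trem2 and Gpnmb, and in BBBPH against model 2 higher, Marco and Timd4, and 2 lower, Trem2 and Gpnmb. Their summed level was 315.8 to 623.4 FPKM in BBBPH, 298.3 to 492.7 in model and 261.7 to 373.4 in control libraries. Sinusoidal endothelial markers had 3 of 8 higher in the model, Stab2, Lyve1 and Pecam1, and 1 lower, Kdr. In BBBPH against model Kdr was higher and Lyve1 lower. They summed to 151.5 to 158.8 FPKM in BBBPH, 112.8 to 161.5 in model and 125.6 to 142.2 in control libraries. Of 7 cholangiocyte markers 2 passed the filter on level and 0 were called, with sums of 22.24 to 34.38 FPKM in BBBPH, 25.42 to 255.4 in model, the highest being model 1_4, and 23.94 to 27.15 in control libraries. As shares of tested markers, 90% of stellate, 30% of macrophage and 37.5% of endothelial markers were higher in the model, against 29.9% of all genes. The macrophage share was thus that of all genes. Of hepatocyte markers 50% were lower, against 8.64%. In BBBPH against model 20% of macrophage and 12.5% of endothelial markers went each way, against 14.2% of all genes higher and 12.2% lower. The part of these cells in the results was not tested, and in bulk RNA fewer cells of a type and less RNA per cell cannot be told apart.

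The members were well expressed. Of the 54, 53 had a mean of at least 1 FPKM over the 15 libraries and entered the test, and the exception was Kdelr3. Their levels lay at a median percentile of 84.9 among the 9575 genes tested, and 52 of them were above the median gene. Other annotated genes share exon bases with 18 of the 54, by the largest percentage for Srprb, 20.7% of its exon bases. Without a stated strand setting those reads cannot be told apart. Summed over all members, FPKM came to 2157 to 2464 in BBBPH, 2152 to 2446 in model and 1959 to 2172 in control libraries, so that the groups overlapped.

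Comparing model with control libraries asks how livers of diet-fed mice given saline differ from those of control mice. By limma on log2(FPKM + 1), with p-values adjusted over all genes tested, 24 of the 53 members tested were higher in the model and 0 were lower, by shares of 45.3% and 0%. Of all 9575 genes, 29.9% were higher and 8.64% lower. Members of the SRP (4 of 6), signal peptidase (3 of 5), oligosaccharyltransferase (4 of 7) and COPII coat (6 of 11) made up most of the 24, and 0 of the 5 translocon genes were called. The changes were small, with log2 fold changes of the 24 called members between 0.21 and 0.57. The count of 0 lower members rests on the setting: Ssr4 was at -0.28, adjusted p = 0.0535, and it was called lower by voom on recovered fragment counts.

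Comparing BBBPH with model libraries asks what the powder changed on the same diet. Here 13 of 53 members (24.5%) were lower in BBBPH libraries, against 12.2% of all genes, and 5 (9.43%) were higher, against 14.2% of all genes. All 13 were SRP, translocon, TRAP, signal peptidase, oligosaccharyltransferase, Sec23b, Tmed9 or Mcfd2 genes, and 0 belonged to COPI. Comparing BBBPH with control libraries, 12 of 53 members (22.6%) were higher, a share close to the 24.4% of all genes, and 0 were lower, against 3.7% of all genes. Of these 12, 5 were COPII genes, 5 COPI genes and the others Ssr4 and Mcfd2. The comparisons share libraries, so their calls are not independent of each other.

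The scaling of the libraries bears on these counts. Over the 9575 genes, the median log2 fold change was 0.12 for model against control, 0.02 for BBBPH against model and 0.13 for BBBPH against control. For the 53 members it was 0.18 for model against control, -0.01 for BBBPH against model and 0.10 for BBBPH against control. With libraries rescaled by median ratios, which centre the genes, the members called in model against control were 11 higher (20.8%, against 16.9% of all genes) and 5 lower (9.43%, against 17.4%). Of all genes called there, 49.2% were higher after rescaling, against 77.6% as FPKM. The 11 were Srp14, Srp19, Srp68, Rpn1, Stt3b, Sec23b, Sec24c, Sec24d, Copb2, Tmed9 and Mcfd2, and the 5 were Srp72, Sec62, Ssr4, Sec24a and Lman1. In BBBPH against control that scaling left 1 member higher, Sec24c, and 1 lower, Sec63. Of all genes called, 47.1% were higher after rescaling, against 86.8% as FPKM. In BBBPH against model it changed little, with 14 members lower (26.4%, against 13.9% of all genes) and 5 higher (9.43%, against 13.7%). Leaving out BBBPH 2_2 and model 1_4, a step chosen with their values known, gave 20 higher and 1 lower member in model against control, 2 higher and 11 lower in BBBPH against model, and 12 higher and 0 lower in BBBPH against control. Leaving out single libraries moved the count of higher members in BBBPH against model most, to 1 without BBBPH 3_2, model 1_1 or model 3_4, to 2 without BBBPH 3_1, and to 3 without BBBPH 2_1, BBBPH 2_2 or model 1_4.

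**Figure D1:**
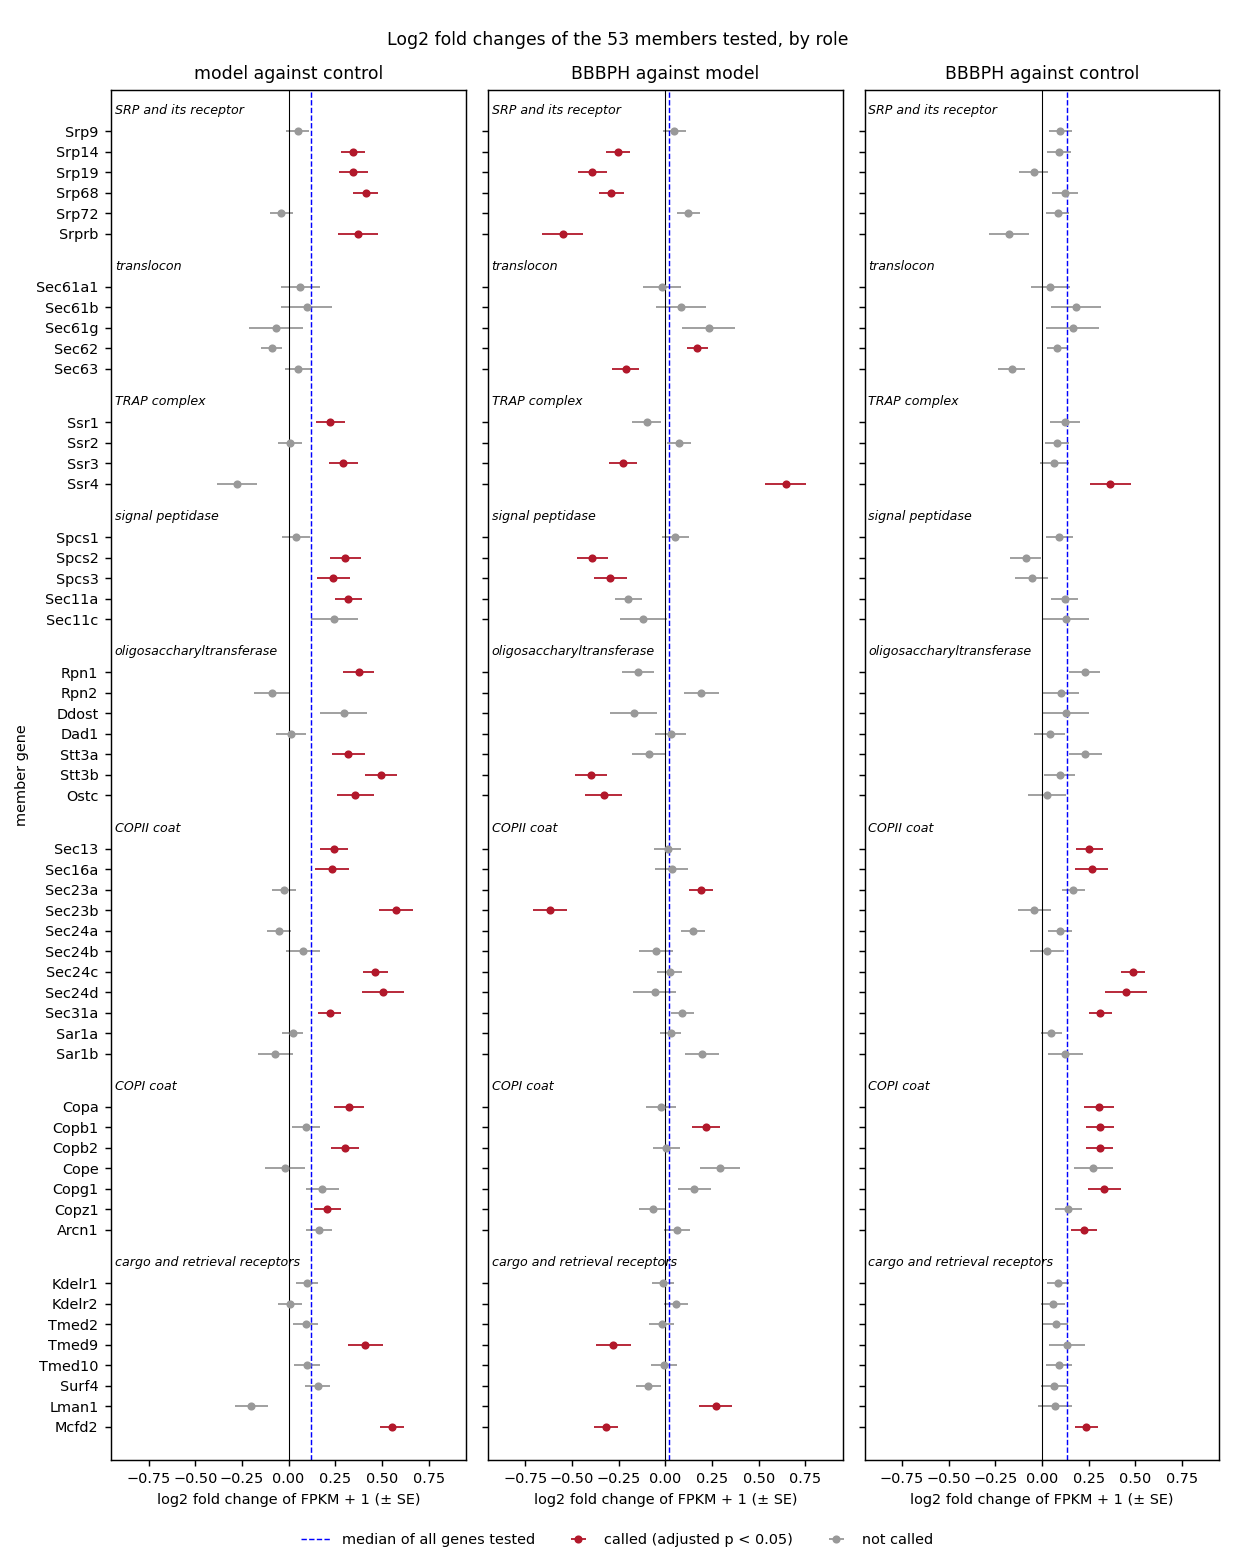
Log2 fold changes of FPKM + 1 with their standard errors for the 53 members tested, grouped by role, in model against control (left), BBBPH against model (middle) and BBBPH against control (right). Red points passed the limma test at an adjusted p under 0.05, and the dashed line is the median of all genes tested (0.12, 0.02 and 0.13). In the left panel 4 of 6 SRP, 3 of 5 signal peptidase and 4 of 7 oligosaccharyltransferase genes are red, all on the right of 0. In the middle panel 4, 2 and 2 genes of these roles are red on its left. Of 7 COPI genes 3, 1 and 5 are red in the left, middle and right panels.

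The libraries of the groups were also compared without a model, as FPKM that were not rescaled. The factors by which median-ratio scaling divides were 0.903 to 0.951 in control libraries and 0.985 to 1.096 in the others. Separations from control libraries therefore depend in part on the scaling, and they were not counted on rescaled values. All 5 model libraries were above all 10 others for 8 of the 53 members (15.1%), against 5.45% of all genes tested: Mcfd2, Ostc, Sec23b, Spcs2, Srp14, Srp19, Srp68 and Stt3b. All 5 control libraries were below all 10 others for 3 members (5.66%), Mcfd2, Sec24c and Sec31a, close to the 6.18% of all genes. For 0 members were all 5 BBBPH libraries above the rest, against 2.8% of all genes.

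Promoters are shown for the members with the smallest adjusted p in model against control, to set them beside those that carry an unfolded protein response element. RefSeq starts on GRCm38.p6 were available for 43 of the 54 members, with 250 bases before and 50 after each start. Stretches from 120 bases before to 30 bases after the start follow for the first 5 of them that had an entry. Sec23b is shown at the first of its 2 starts, and capitals mark a CCAAT box, which reads ATTGG on the other strand.
Mcfd2 (chr17:87265918-87266067, minus strand): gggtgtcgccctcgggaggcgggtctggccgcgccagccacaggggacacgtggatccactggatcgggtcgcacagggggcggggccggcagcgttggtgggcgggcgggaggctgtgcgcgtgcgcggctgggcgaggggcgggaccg
Sec24c (chr14:20674201-20674350, plus strand): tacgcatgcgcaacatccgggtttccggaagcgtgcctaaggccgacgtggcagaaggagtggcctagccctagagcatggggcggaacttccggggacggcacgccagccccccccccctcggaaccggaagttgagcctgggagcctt
Sec23b (chr2:144556109-144556258, plus strand): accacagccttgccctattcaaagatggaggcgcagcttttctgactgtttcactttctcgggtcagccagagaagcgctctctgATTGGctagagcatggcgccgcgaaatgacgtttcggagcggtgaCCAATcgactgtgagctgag
Stt3b (chr9:115310439-115310588, minus strand): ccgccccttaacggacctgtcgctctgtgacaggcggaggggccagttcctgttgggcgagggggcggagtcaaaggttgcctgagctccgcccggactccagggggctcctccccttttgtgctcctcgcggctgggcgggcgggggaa
Srp14 (chr2:118479667-118479816, minus strand): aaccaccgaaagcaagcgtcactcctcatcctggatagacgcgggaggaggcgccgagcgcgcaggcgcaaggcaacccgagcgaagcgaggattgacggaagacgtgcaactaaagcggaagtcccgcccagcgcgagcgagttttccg
Only the Sec23b stretch among these 5 held a CCAAT box, at 2 places. The ER stress response element is CCAAT and CCACG with 9 bases of any kind between them, on either strand. It was in promoters of 0 of the 43 members, of 0.137% of all genes and of 0.206% of genes tested here. Its second form, ATTGG and CCACG with 1 base between them, was in promoters of 0 of 43 members, 0.0444% of all genes and 0.116% of genes tested. Both forms are so rare that a count of 0 among 43 members cannot tell them from other genes. The core of the unfolded protein response element bound by Xbp1 and Atf6, TGACGTG on either strand, was in promoters of 5 of 43 members (11.6%). It was in promoters of 2.22% of all genes and of 3.26% of genes tested here. A gene was counted if any of its starts had a match. The motifs were chosen for their known part in the unfolded protein response, and a match describes the letters only. In the 5 below, capitals mark the core, which reads CACGTCA on the other strand and overlapped no CCAAT box.
Copb1 (chr7:114254651-114254800, minus strand): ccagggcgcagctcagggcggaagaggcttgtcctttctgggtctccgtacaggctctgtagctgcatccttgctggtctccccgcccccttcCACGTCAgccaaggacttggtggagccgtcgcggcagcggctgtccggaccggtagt
Copb2 (chr9:98563611-98563760, plus strand): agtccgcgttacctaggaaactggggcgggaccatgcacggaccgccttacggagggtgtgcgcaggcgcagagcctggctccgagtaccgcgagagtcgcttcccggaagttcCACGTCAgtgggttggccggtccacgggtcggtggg
Kdelr3 (chr15:79516288-79516437, plus strand): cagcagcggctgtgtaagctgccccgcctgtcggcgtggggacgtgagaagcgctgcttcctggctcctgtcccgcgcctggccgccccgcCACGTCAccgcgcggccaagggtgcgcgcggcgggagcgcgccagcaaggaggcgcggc
Sec23a (chr12:59011988-59012137, minus strand): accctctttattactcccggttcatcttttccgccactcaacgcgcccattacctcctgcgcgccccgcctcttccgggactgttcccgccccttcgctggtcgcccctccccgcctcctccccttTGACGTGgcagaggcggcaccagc
Sec24d (chr3:123267376-123267525, plus strand): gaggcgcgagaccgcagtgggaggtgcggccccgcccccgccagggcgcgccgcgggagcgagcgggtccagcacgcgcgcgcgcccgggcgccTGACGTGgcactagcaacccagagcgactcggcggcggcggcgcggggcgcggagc
The core began 26 to 29 bases before the start in Sec24d, Copb1 and Kdelr3, 6 bases before it in Copb2 and 6 bases after it in Sec23a. Of these 5, Copb2 and Sec24d were called higher in the model, Sec23a and Copb1 were not, and Kdelr3 was below the filter on level. CCAAT boxes alone were in promoters of 18 of 43 members (41.9%), against 42.8% of genes tested.

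Genes of the SRP and its receptor were higher in the model for 4 of 6 members and lower again in BBBPH libraries for the same 4, Srp14, Srp19, Srp68 and Srprb. Each share was 66.7%, against 29.9% of all genes higher in the model and 12.2% lower in BBBPH against model. The median log2 fold change of the 6 was 0.35 in model against control, 0.23 above that of all genes, and -0.27 in BBBPH against model. Srp68 (GRCm38 chr11:116245166-116274217), which with Srp72 forms the part of the particle that drives translocation, had 18.7, 17.6, 20.7, 16.7 and 18.004 FPKM in BBBPH libraries. It reached 23.9, 20.8, 21.6, 23.7 and 23.1 in model libraries and 16.2, 15.5, 18.6, 16.1 and 17.4 in control libraries. Every model library was above every other library (model against control log2 fold change 0.41 ± 0.07, adjusted p = 0.000336). BBBPH libraries were below all model libraries (log2 fold change -0.29 ± 0.07, adjusted p = 0.00562). Srp14, which with Srp9 forms the domain that slows the ribosome, had 38.8, 42.2, 39.1, 42.3 and 43.96 FPKM in BBBPH libraries. The model libraries had 49.3, 45.03, 51.2, 48.5 and 53.3, and the control libraries 40.5, 39.5, 39.5, 39.7 and 34.4. Model libraries again lay above all others (model against control log2 fold change 0.35 ± 0.06, adjusted p = 0.000802). BBBPH libraries were below all model libraries (log2 fold change -0.25 ± 0.06, adjusted p = 0.00869), and BBBPH and control libraries overlapped. Srprb, the membrane-anchored GTPase of the receptor, had 7.11, 5.90, 6.30, 6.18 and 5.01 FPKM in BBBPH libraries. In model libraries it was 9.44, 9.46, 8.71, 9.36 and 9.80, and in control libraries 7.16, 5.33, 7.94, 6.08 and 8.99. It was lower in all BBBPH than in all model libraries (log2 fold change -0.55 ± 0.11, adjusted p = 0.00161), while model and control libraries overlapped (log2 fold change 0.37 ± 0.11, adjusted p = 0.013), a difference not called with median-ratio scaling (adjusted p = 0.117). Srp19, which helps assemble the particle on its RNA, changed likewise (model against control 0.35, adjusted p = 0.00287; BBBPH against model -0.39, adjusted p = 0.00183, as log2 fold changes). The partners Srp9 and Srp72 were at log2 fold changes of 0.05 and -0.04 in model against control (adjusted p = 0.544 and 0.643). With median-ratio scaling Srp72 was lower in the model (-0.18, adjusted p = 0.0179). Of the annotated exon bases of Srprb, 20.7% are shared with Gm20425 on the same strand, whose reads cannot be told apart there.

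Of the 5 translocon genes 0 were called in model against control, and 1 was higher and 1 lower in BBBPH against model. The latter were 20% each, against 14.2% and 12.2% of all genes tested. Sec61a1, the pore subunit, had 47.3, 47.9, 49.8, 48.6 and 40.4 FPKM in BBBPH libraries. Values were 45.9, 54.4, 46.3, 47.2 and 43.3 in model libraries and 39.8, 36.4, 53.2, 46.2 and 52.9 in control libraries. The 3 groups overlapped throughout, and Sec61a1 was not called in model against control (log2 fold change 0.06 ± 0.10, adjusted p = 0.65) nor in BBBPH against model (log2 fold change -0.02 ± 0.10, adjusted p = 0.918). Sec61b, a small subunit, had 80.4, 99.7, 65.97, 104 and 65.01 FPKM in BBBPH libraries. Its values were 66.9, 91.4, 75.3, 75.5 and 76.7 in model and 75.4, 66.6, 70.3, 86.8 and 61.9 in control libraries. All 3 groups overlapped, and BBBPH libraries spread most widely (model against control log2 fold change 0.10 ± 0.13, adjusted p = 0.593). Sec61g, the third subunit, has 4 near-identical pseudogene copies in the genome and was likewise not called, at -0.07 and 0.23 in those comparisons. Sec62, which with Sec63 serves chains that arrive after synthesis, had 43.1, 45.3, 45.2, 45.3 and 43.7 FPKM in BBBPH libraries. Model libraries held 38.1, 37.1, 41.5, 42.04 and 38.7 and control libraries 38.2, 43.9, 42.8, 43.7 and 41.8. All BBBPH libraries were above all model libraries (log2 fold change 0.17 ± 0.06, adjusted p = 0.0354), whereas Sec63, which recruits the chaperone BiP, was lower in BBBPH than model libraries (log2 fold change -0.21 ± 0.07, adjusted p = 0.0356). Neither call held in every fit: Sec62 was not called without BBBPH 2_2, 3_1 or 3_2 or model 1_1, 1_4 or 3_4 (adjusted p 0.0646 to 0.0797), and Sec63 was not without BBBPH 2_2, 3_2 or 3_4 or model 1_4, 2_1, 2_3 or 3_4 (adjusted p 0.0546 to 0.0899). With median-ratio scaling Sec62 was lower in model than control libraries (-0.23, adjusted p = 0.00201), a difference not called as FPKM (-0.09, adjusted p = 0.219).

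The TRAP complex sits beside the channel and helps certain signal peptides open it. Of its 4 genes 2 (50%) were called higher in the model, against 29.9% of all genes tested. In BBBPH against model 1 (25%) was higher and 1 (25%) lower, against 14.2% and 12.2%. Ssr3 had 98.7, 106, 105, 112 and 91.2 FPKM in BBBPH libraries. It reached 111, 136, 114, 119 and 121 in model libraries and 95.2, 86.9, 107, 104 and 97.4 in control libraries. Its model libraries lay above all control libraries (log2 fold change 0.29 ± 0.08, adjusted p = 0.00783) and overlapped BBBPH libraries, which were lower on average (log2 fold change -0.23 ± 0.08, adjusted p = 0.0405). Ssr1 had 9.68, 9.21, 9.58, 10.05 and 8.07 FPKM in BBBPH libraries. The model libraries had 8.78, 11.01, 9.99, 10.8 and 9.71, and the control libraries 8.34, 7.17, 9.60, 8.73 and 8.59, with overlap between model and control libraries (log2 fold change 0.22 ± 0.08, adjusted p = 0.0357). Ssr4 (GRCm38 chrX:73787028-73790830) went the other way, with 112, 139, 116, 132 and 100.5 FPKM in BBBPH libraries. In model libraries it was 72.8, 98.2, 70.7, 71.5 and 69.6, and in control libraries 86.996, 87.8, 84.1, 100.3 and 104. Every BBBPH library was above every model library (log2 fold change 0.64 ± 0.11, adjusted p = 0.000549), the largest rise of any member in that comparison, and BBBPH was also above control (log2 fold change 0.37 ± 0.11, adjusted p = 0.0212). The highest model value, 98.2 FPKM, was that of model 1_4, which also stood apart in Saa2. Without that library Ssr4 was called lower in model than control libraries (-0.37, adjusted p = 0.00676). The same call was made without control 2_1, BBBPH 2_2 or BBBPH 3_4 (adjusted p 0.0446 to 0.0485). Ssr2 was called in 0 of the 3 comparisons. Among these calls, Ssr1 in model against control was lost without model 1_4, 2_1 or 2_3 or control 1_1, 1_5, 2_2 or 3_4 (adjusted p 0.0501 to 0.0949), Ssr3 in BBBPH against model without BBBPH 2_1, 2_2, 3_1 or 3_4 or model 1_4, 2_3 or 3_4 (adjusted p 0.0549 to 0.101), and Ssr4 in BBBPH against control without BBBPH 2_2 or 3_2 (adjusted p 0.0541 to 0.0569). With median-ratio scaling Ssr1 and Ssr3 were not called in model against control (adjusted p = 0.346 and 0.128).

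Signal peptidase genes were higher in the model for 3 of 5 (60%, against 29.9% of all genes tested). The 5 had a median log2 fold change of 0.25, or 0.13 above that of all genes. Sec11a, a catalytic subunit, had 30.02, 37.1, 32.5, 35.9 and 30.9 FPKM in BBBPH libraries. Values were 37.9, 37.8, 35.9, 38.4 and 41.1 in model libraries and 27.4, 28.5, 32.9, 31.5 and 32.1 in control libraries. All model libraries exceeded all control libraries (log2 fold change 0.32 ± 0.07, adjusted p = 0.00314). In BBBPH against model it was just outside the threshold (log2 fold change -0.20 ± 0.07, adjusted p = 0.0558). Spcs2, an accessory subunit, had 13.99, 13.4, 14.4, 13.97 and 12.1 FPKM in BBBPH libraries. Its values were 15.4, 17.7, 17.5, 17.99 and 22.5 in model and 14.5, 13.1, 15.4, 14.6 and 14.9 in control libraries. Model libraries lay above all others (model against control log2 fold change 0.30 ± 0.08, adjusted p = 0.00959). BBBPH libraries were below all model libraries (log2 fold change -0.39 ± 0.08, adjusted p = 0.0028), and model 3_4 was the highest. The accessory subunit Spcs3 was called in the same comparisons (model against control 0.24, adjusted p = 0.0415; BBBPH against model -0.29, adjusted p = 0.0218, as log2 fold changes). Its first call was lost without model 1_4, 2_1, 2_3 or 3_4 or control 1_1, 1_5 or 3_4 (adjusted p 0.0551 to 0.101) and its second without BBBPH 3_4 (adjusted p = 0.0519). Spcs1 and the second catalytic subunit, Sec11c, were called in 0 of the 3 comparisons (adjusted p = 0.7 and 0.132 in model against control). With median-ratio scaling 0 of the 5 were called in model against control, Sec11a at an adjusted p of 0.0554, and 3 were lower in BBBPH than model libraries. Spcs2 has 1 near-identical pseudogene copy, and 16.3% of the exon bases of Spcs1 lie opposite Glt8d1.

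Oligosaccharyltransferase genes were higher in the model for 4 of 7 members, Stt3a, Stt3b, Rpn1 and Ostc, and lower in BBBPH than model libraries for Stt3b and Ostc. As shares, 57.1% were higher, against 29.9% of all genes tested, and 28.6% were lower, against 12.2%. The complex exists in forms with either of a pair of catalytic subunits: Stt3a works on chains still entering the ER, Stt3b on sites left over. Stt3b (GRCm38 chr9:115242581-115310421) had 24.3, 20.7, 25.7, 21.5 and 18.7 FPKM in BBBPH libraries. Model libraries held 31.3, 30.1, 27.6, 28.7 and 29.3 and control libraries 20.5, 17.96, 21.7, 19.9 and 23.2. Model libraries lay above all others, by 1.41-fold over control on the scale of FPKM + 1 (model against control log2 fold change 0.49 ± 0.08, adjusted p = 0.000468). BBBPH libraries were below all model libraries (log2 fold change -0.40 ± 0.08, adjusted p = 0.00291). Stt3a had 16.9, 18.2, 17.5, 18.7 and 15.5 FPKM in BBBPH libraries. It reached 17.2, 21.8, 17.1, 19.3 and 17.4 in model libraries and 14.2, 12.3, 17.5, 14.5 and 14.9 in control libraries. Model and control libraries overlapped in 1 control library, 2_1 (log2 fold change 0.32 ± 0.09, adjusted p = 0.0102), and BBBPH was not called against model (log2 fold change -0.09 ± 0.09, adjusted p = 0.497). Rpn1, a subunit of both forms, had 31.2, 31.8, 34.8, 31.1 and 28.7 FPKM in BBBPH libraries. The model libraries had 31.995, 41.9, 31.2, 36.3 and 34.1, and the control libraries 26.2, 23.2, 27.6, 27.4 and 29.5. All model libraries were above all control libraries (log2 fold change 0.37 ± 0.08, adjusted p = 0.00288), and BBBPH libraries overlapped both groups (BBBPH against control log2 fold change 0.23 ± 0.08, adjusted p = 0.0535). Ostc, which belongs to the Stt3a form, was higher in model than control libraries (log2 fold change 0.36 ± 0.10, adjusted p = 0.011) and lower in BBBPH than model libraries (log2 fold change -0.33 ± 0.10, adjusted p = 0.0235), a call lost without model 1_4 or 3_4 (adjusted p 0.0521 to 0.0541). Rpn2, Ddost and Dad1, also shared by both forms, were not called, at -0.09, 0.29 and 0.01 in model against control; model 1_4 held the highest Ddost and Rpn2 of its group. With median-ratio scaling Stt3b and Rpn1 stayed called in model against control, while Stt3a and Ostc did not (adjusted p = 0.11 and 0.0891).

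**Figure D2:**
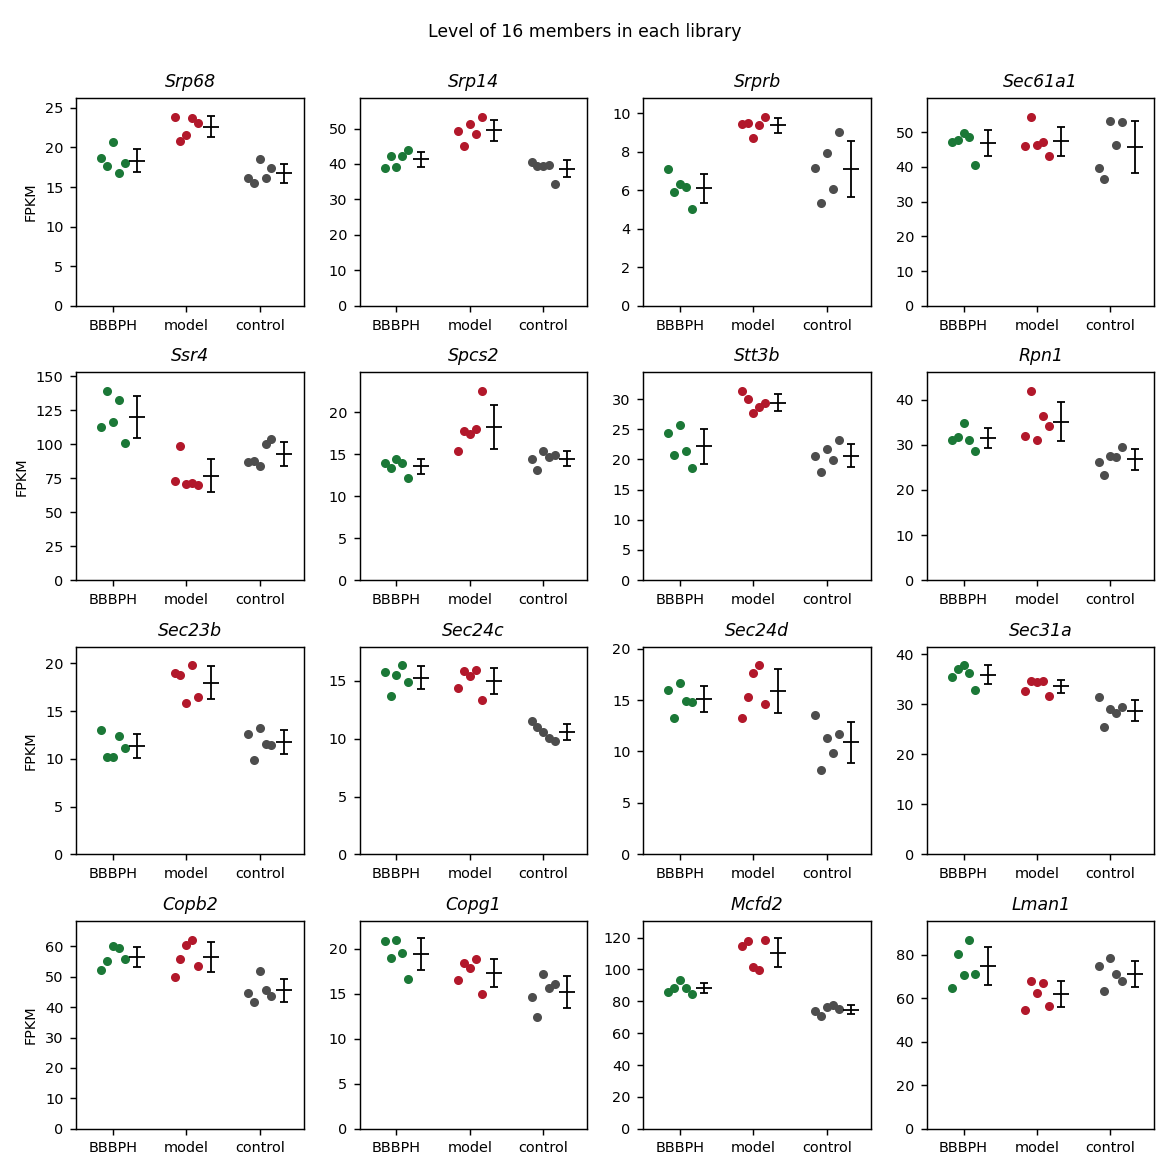
FPKM of 16 members in every library, with BBBPH left, model in the middle and control right in each panel; points are single libraries and the black marks give the group mean with its SD (n = 5). Srp68, Srp14, Spcs2, Stt3b, Sec23b and Mcfd2 have their model points above all others, Sec24c and Sec31a have their control points below all others, Ssr4 is lowest in the model apart from 1 library, and Sec61a1 overlaps between all groups.

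Of 11 COPII coat genes, 6 (54.5%) were higher in model and 5 (45.5%) in BBBPH than control libraries, against 29.9% and 24.4% of all genes. Sec13, Sec16a, Sec24c, Sec24d and Sec31a were called in both comparisons, and Sec23b in the first. With median-ratio scaling 3 were higher (27.3%, against 16.9% of all genes) and 1 lower (9.09%, against 17.4%) in the model. In BBBPH against control 1 was then higher (9.09%, against 8.16%). Sec23b (GRCm38 chr2:144556229-144590749), which stimulates GTP hydrolysis by Sar1 within the inner coat, had 13.02, 10.2, 10.2, 12.4 and 11.1 FPKM in BBBPH libraries. In model libraries it was 19.01, 18.8, 15.8, 19.8 and 16.5, and in control libraries 12.6, 9.92, 13.3, 11.5 and 11.4. Model libraries lay above all others (model against control log2 fold change 0.57 ± 0.09, adjusted p = 0.00021). BBBPH libraries were below all model libraries (log2 fold change -0.62 ± 0.09, adjusted p = 0.000177), and BBBPH and control libraries overlapped (log2 fold change -0.04 ± 0.09, adjusted p = 0.747). Its paralog Sec23a was the more abundant, at 31.5 ± 1.61 FPKM in BBBPH, 27.5 ± 2.29 in model and 27.9 ± 1.27 in control libraries (SD, n = 5), and was not called in model against control (-0.02, adjusted p = 0.787). It was slightly higher in BBBPH than model libraries (log2 fold change 0.19 ± 0.06, adjusted p = 0.0357), a call lost without BBBPH 2_1, 3_1 or 3_2 or model 1_1, 1_4 or 3_4 (adjusted p 0.0562 to 0.0933).

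Of the 4 paralogs of Sec24, the subunit that binds cargo, Sec24c and Sec24d were called against control in both diet groups and Sec24a and Sec24b in neither. Sec24c (GRCm38 chr14:20674308-20694852) had 15.8, 13.7, 15.5, 16.3 and 14.9 FPKM in BBBPH libraries. Values were 14.4, 15.8, 15.5, 15.98 and 13.4 in model libraries and 11.5, 11.003, 10.6, 10.1 and 9.78 in control libraries. Every BBBPH and every model library was above every control library (model against control log2 fold change 0.46 ± 0.07, adjusted p = 0.000105; BBBPH against control log2 fold change 0.49 ± 0.07, adjusted p = 0.000277), and BBBPH and model libraries overlapped (log2 fold change 0.02 ± 0.07, adjusted p = 0.823). Sec24d had 15.97, 13.3, 16.6, 14.9 and 14.8 FPKM in BBBPH libraries. Its values were 13.2, 15.3, 17.6, 18.4 and 14.7 in model and 13.5, 8.23, 11.3, 9.86 and 11.7 in control libraries. Model 1_1 and BBBPH 2_2 lay just below control 1_1, the highest control library, and the remaining libraries of both diet groups lay above all controls (model against control log2 fold change 0.51 ± 0.11, adjusted p = 0.00268; BBBPH against control log2 fold change 0.45 ± 0.11, adjusted p = 0.00959). Sec24a had 15.2, 14.9, 17.5, 16.6 and 16.9 FPKM in BBBPH libraries. Model libraries held 14.3, 13.7, 15.5, 16.1 and 13.2 and control libraries 15.8, 14.2, 15.05, 15.6 and 14.7. Its groups overlapped and it was called in 0 of the 3 comparisons (model against control log2 fold change -0.05 ± 0.07, adjusted p = 0.567), although with median-ratio scaling it was lower in the model (-0.18, adjusted p = 0.0214). Sec24b, the least abundant of the 4, had 4.77, 4.56, 4.73, 3.69 and 3.76 FPKM in BBBPH libraries. It reached 4.35, 4.82, 3.94, 4.10 and 5.23 in model libraries and 4.41, 4.21, 3.92, 3.52 and 4.97 in control libraries, again with groups that overlapped (log2 fold change 0.08 ± 0.09, adjusted p = 0.516). Sec24c kept both of its calls with median-ratio scaling; Sec24d kept the call in model against control only (BBBPH against control, adjusted p = 0.0775).

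In the outer coat, Sec31a was higher in model (log2 fold change 0.22 ± 0.06, adjusted p = 0.0116) and in BBBPH libraries (log2 fold change 0.31 ± 0.06, adjusted p = 0.00281) than in control libraries, and its control libraries, 25.5 to 31.4 FPKM, lay below the 31.6 to 37.8 FPKM of both diet groups. Its partner Sec13, which also serves in nuclear pores, was also higher (log2 fold change 0.24, adjusted p = 0.0176 for model and 0.25, adjusted p = 0.0195 for BBBPH against control), the BBBPH call being lost without BBBPH 3_2 (adjusted p = 0.0515). Sec16a, the scaffold of ER exit sites, was at log2 fold changes of 0.23, adjusted p = 0.0489 for model and 0.27, adjusted p = 0.0361 for BBBPH against control. The call in model against control was lost without BBBPH 2_1, 2_2, 3_1, 3_2 or 3_4, model 1_1, 1_4, 2_1 or 2_3 or control 1_1, 1_5 or 2_2 (adjusted p 0.051 to 0.123), and the one in BBBPH against control without BBBPH 2_1, 3_1 or 3_2 or control 1_1, 1_5 or 2_2 (adjusted p 0.0566 to 0.0835). With median-ratio scaling Sec31a, Sec13 and Sec16a were not called against control in either diet group, with adjusted p-values of 0.101 to 0.404. Sar1a and Sar1b, the GTPases that start the coat, were called in 0 of the 3 comparisons, and Sar1b, at 164 ± 8.86 FPKM in BBBPH, 144 ± 19.3 in model and 151 ± 12.9 in control libraries (SD, n = 5), was the most abundant COPII gene.

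Of 7 COPI genes, 3 were higher in model and 5 in BBBPH than control libraries (42.9% and 71.4%, against 29.9% and 24.4% of all genes tested), and Copb1, Cope, Copg1 and Arcn1 were not called in model against control. The 7 genes had median log2 fold changes of 0.18 in the model and 0.30 in BBBPH libraries, or 0.06 and 0.17 above those of all genes. Copb2, the beta-prime coat subunit, had 52.3, 55.2, 60.1, 59.4 and 55.9 FPKM in BBBPH libraries. The model libraries had 50.1, 55.9, 60.6, 62.2 and 53.4, and the control libraries 44.5, 41.9, 51.8, 45.8 and 43.8. BBBPH libraries lay above all control libraries (log2 fold change 0.31 ± 0.07, adjusted p = 0.00754) and model libraries overlapped a single control, 2_1 (log2 fold change 0.30 ± 0.07, adjusted p = 0.00496). Copa, the alpha subunit, had 52.7, 53.1, 54.3, 58.4 and 47.3 FPKM in BBBPH libraries. In model libraries it was 50.3, 55.6, 56.03, 56.7 and 50.9, and in control libraries 43.1, 35.2, 46.5, 42.9 and 47.3. All model libraries were above all control libraries (log2 fold change 0.32 ± 0.08, adjusted p = 0.00559), BBBPH 3_4 was level with the highest control (BBBPH against control log2 fold change 0.30 ± 0.08, adjusted p = 0.0129), and BBBPH and model libraries overlapped (log2 fold change -0.02 ± 0.08, adjusted p = 0.876). Copb1, the beta subunit, had 42.5, 39.96, 47.9, 45.9 and 42.9 FPKM in BBBPH libraries. Values were 35.2, 34.6, 40.6, 42.4 and 35.3 in model libraries and 32.5, 33.7, 38.6, 33.9 and 37.2 in control libraries. It was higher in BBBPH than control libraries with no overlap (log2 fold change 0.31 ± 0.08, adjusted p = 0.00812) and higher in BBBPH than model libraries (log2 fold change 0.22 ± 0.08, adjusted p = 0.0431), the second of these being lost without BBBPH 2_1, 3_1, 3_2 or 3_4, model 1_1, 1_4 or 3_4 or control 1_5 or 2_2 (adjusted p 0.0506 to 0.104). Copg1 (0.33, adjusted p = 0.0125) and Arcn1 (0.23, adjusted p = 0.0247) were higher in BBBPH than control libraries, Arcn1, which has 2 near-identical pseudogene copies, not without BBBPH 3_1 or 3_2 or control 1_1 or 1_5 (adjusted p 0.0522 to 0.0671), and Copz1 in model than control libraries (0.21, adjusted p = 0.0333), not without model 1_4, 2_3 or 3_4 or control 1_1, 2_1, 2_2 or 3_4 (adjusted p 0.0504 to 0.0792). Cope was called in 0 comparisons, at 0.29, adjusted p = 0.0517 in BBBPH against model. With median-ratio scaling the COPI calls were Copb2 in model against control (adjusted p = 0.0432) and Copb1 in BBBPH against model (adjusted p = 0.0353).

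Of 8 cargo and retrieval receptors tested, 2 were higher and 0 lower in the model, and 1 was higher and 2 lower in BBBPH against model. As shares, 25% were higher in the model, against 29.9% of all genes tested, and in BBBPH against model 12.5% were higher and 25% lower, against 14.2% and 12.2%. Mcfd2 (GRCm38 chr17:87254443-87265935), the soluble partner with which the lectin Lman1 carries coagulation factors out of the ER, had 85.8, 88.5, 93.4, 88.6 and 84.9 FPKM in BBBPH libraries. Its values were 115, 118, 101, 99.8 and 119 in model and 73.9, 70.7, 76.5, 77.7 and 74.9 in control libraries. The groups did not overlap in any pair: model was highest, BBBPH between and control lowest (model against control log2 fold change 0.55 ± 0.06, adjusted p = 1.90e-05; BBBPH against model log2 fold change -0.32 ± 0.06, adjusted p = 0.0018; BBBPH against control log2 fold change 0.24 ± 0.06, adjusted p = 0.0128). With median-ratio scaling the last of these was not called (adjusted p = 0.491). Lman1 had 64.9, 80.5, 70.9, 86.9 and 71.04 FPKM in BBBPH libraries. Model libraries held 54.8, 68.1, 62.6, 66.8 and 56.6 and control libraries 74.8, 63.1, 78.4, 71.2 and 67.7. It was lower on average in the model, without reaching the threshold as FPKM (log2 fold change -0.20 ± 0.09, adjusted p = 0.0903) and past it with median-ratio scaling (-0.34, adjusted p = 0.00386), and higher in BBBPH than model libraries (log2 fold change 0.27 ± 0.09, adjusted p = 0.0368), though not without BBBPH 2_2 or 3_2 or model 1_1, 2_1 or 3_4 (adjusted p 0.057 to 0.0974). Tmed9, a p24 cargo receptor, had 31.5, 30.4, 37.1, 35.4 and 26.4 FPKM in BBBPH libraries. It reached 35.1, 44.7, 34.4, 40.5 and 40.9 in model libraries and 29.4, 25.8, 31.6, 28.7 and 30.02 in control libraries. All model libraries were above all control libraries (log2 fold change 0.41 ± 0.09, adjusted p = 0.0034), and its lower level in BBBPH than model libraries (log2 fold change -0.28 ± 0.09, adjusted p = 0.0408) was not called without BBBPH 2_1, 2_2 or 3_4, model 1_4, 2_3 or 3_4 or control 1_1 or 2_2 (adjusted p 0.0501 to 0.102). The p24 genes Tmed2 and Tmed10, which both have near-identical copies, and Surf4, a receptor for lipoproteins and other cargo, were called in 0 of the 3 comparisons.

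KDEL receptors return ER chaperones that have escaped to the Golgi. Kdelr1 had 53.4, 55.7, 57.1, 60.1 and 58.1 FPKM in BBBPH libraries. The model libraries had 54.1, 56.3, 59.7, 60.5 and 56.3, and the control libraries 55.4, 50.5, 56.8, 55.4 and 50.1. Its paralog Kdelr2 had 39.7, 38.1, 39.8, 42.1 and 39.3 FPKM in BBBPH libraries. In model libraries it was 36.6, 39.1, 36.03, 39.6 and 39.97, and in control libraries 38.4, 34.8, 39.7, 43.1 and 35.1. Neither was called in any of the 3 comparisons (model against control 0.10 and 0.01, with adjusted p = 0.199 and 0.957). Kdelr3 was the one member below the level filter, and rested on 7, 17, 20, 16 and 8 fragments in BBBPH libraries, 11, 30, 20, 6 and 12 in model libraries and 2, 4, 4, 5 and 3 in control libraries. In units of FPKM it had 0.129, 0.325, 0.387, 0.298 and 0.143 FPKM in BBBPH libraries. Values were 0.203, 0.575, 0.384, 0.116 and 0.234 in model libraries and 0.0392, 0.0771, 0.0782, 0.0954 and 0.0599 in control libraries. Every library of both diet groups held more Kdelr3 than any control library, at a level where single fragments count. It was not tested at the filter of 1 FPKM; with no filter on level it was called higher in model than control libraries (log2 fold change 0.27 ± 0.08 SE, adjusted p = 0.0259) and was not called in BBBPH against control (0.23 ± 0.08 SE, adjusted p = 0.0764).

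Ratios within a library do not depend on its scaling, and 12 pairs of related members were compared over the 3 comparisons by exact 2-sided permutation tests of the mean log2 ratio (36 tests, adjusted together; the smallest p that 252 arrangements allow is 0.00794). The pairs were chosen with the members' values known, and several of them share a Sec24 gene. Tests at the smallest p therefore restate separations of groups already seen, and are no independent support. Their adjusted p-values depend on which pairs were included. Sec23b over Sec23a was 0.389, 0.34, 0.311, 0.398 and 0.372 in BBBPH libraries. Its values were 0.755, 0.727, 0.535, 0.655 and 0.624 in model and 0.441, 0.386, 0.462, 0.404 and 0.411 in control libraries. The ratio was higher in all model libraries than in any other (difference of log2 ratios 0.64 ± 0.10, exact p = 0.00794, adjusted p = 0.0318 against control; difference of log2 ratios -0.86 ± 0.11, exact p = 0.00794, adjusted p = 0.0318 for BBBPH against model). Mcfd2 over Lman1 was 1.32, 1.1, 1.32, 1.02 and 1.2 in BBBPH libraries. Model libraries held 2.1, 1.73, 1.62, 1.49 and 2.1 and control libraries 0.988, 1.12, 0.975, 1.09 and 1.11. Again model libraries were highest (difference of log2 ratios 0.76 ± 0.11, exact p = 0.00794, adjusted p = 0.0318 against control; difference of log2 ratios -0.59 ± 0.12, exact p = 0.00794, adjusted p = 0.0318 for BBBPH against model), and BBBPH and control libraries overlapped.

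Among the Sec24 genes, Sec24c over Sec24a was 1.03, 0.922, 0.886, 0.984 and 0.884 in BBBPH libraries. It reached 1, 1.16, 0.998, 0.994 and 1.01 in model libraries and 0.727, 0.774, 0.702, 0.648 and 0.666 in control libraries. All libraries of both diet groups were above all controls (difference of log2 ratios 0.55 ± 0.06, exact p = 0.00794, adjusted p = 0.0318 for model; difference of log2 ratios 0.42 ± 0.06, exact p = 0.00794, adjusted p = 0.0318 for BBBPH). Sec24d over Sec24a differed likewise (difference of log2 ratios 0.60 ± 0.12, exact p = 0.00794, adjusted p = 0.0318 for model against control; difference of log2 ratios 0.38 ± 0.11, exact p = 0.00794, adjusted p = 0.0318 for BBBPH against control), whereas Sec24d over Sec24c did not pass, with a mean ratio of 0.99 in BBBPH, 1.05 in model and 1.02 in control libraries. Sec24c over Sec24b passed for BBBPH against control (difference of log2 ratios 0.49 ± 0.14, exact p = 0.00794, adjusted p = 0.0318) and not for model against control (difference of log2 ratios 0.40 ± 0.15, exact p = 0.0397, adjusted p = 0.102). Stt3b over Stt3a averaged 1.27 in BBBPH, 1.59 in model and 1.41 in control libraries and passed in 0 comparisons after adjustment (model against control difference of log2 ratios 0.17 ± 0.09, exact p = 0.0873, adjusted p = 0.185; BBBPH against model difference of log2 ratios -0.32 ± 0.11, exact p = 0.0318, adjusted p = 0.0879), so that a difference between the catalytic subunits in their response was not shown. Ratios of Sar1b over Sar1a, Sec11c over Sec11a and Kdelr2 over Kdelr1 passed in 0 of 9 tests, as did Sec24b over Sec24a in 0 of 3 and Sec24d over Sec24b in 0 of 3.

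**Figure D3:**
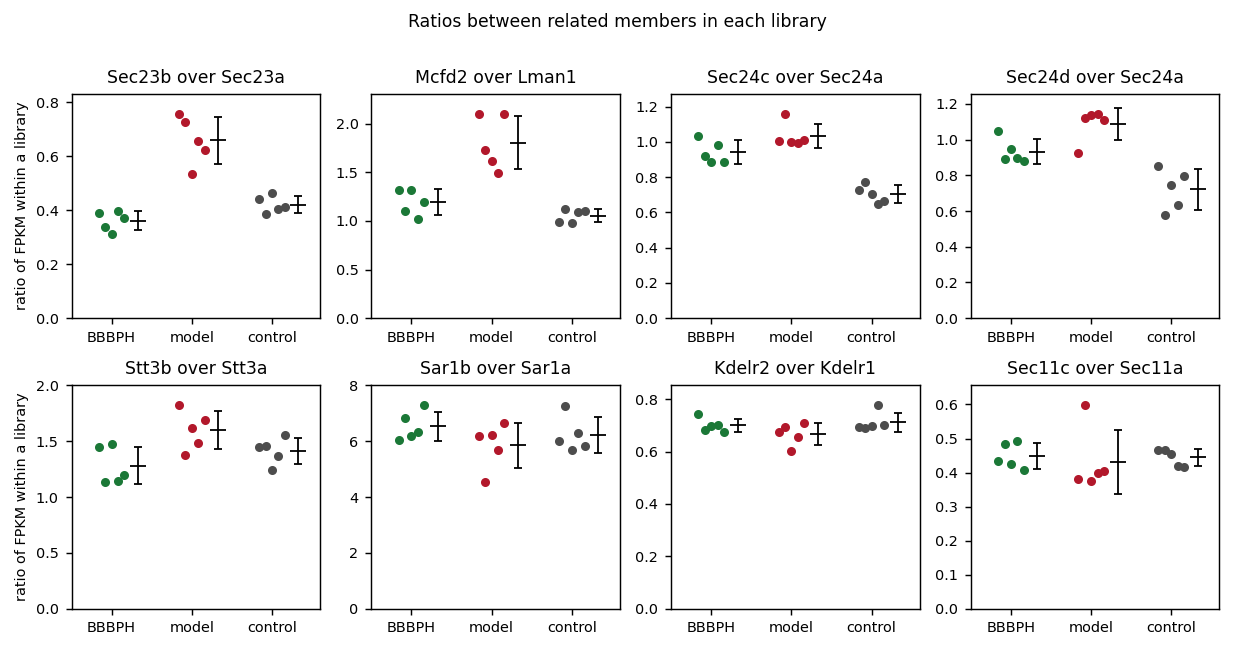
Ratio of FPKM between related members within each library, with BBBPH left, model in the middle and control right; points are single libraries and the black marks give the mean with its SD (n = 5). Sec23b over Sec23a and Mcfd2 over Lman1 are highest in the 5 model libraries, Sec24c over Sec24a is lowest in the 5 control libraries, and the 4 lower panels overlap between groups.

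Genes that work beside the module were taken from 7 further lists. Their median log2 fold changes in model against control were 0.27 for vesicle budding, tethering and fusion, 0.21 for glycan assembly, 0.20 for glycan trimming and folding and for transcription factors and sensors, 0.18 for remaining oligosaccharyltransferase subunits, 0.11 for Golgi enzymes and 0.10 for other targeting routes, against 0.12 over all genes tested. The shares of all genes tested called higher and lower were 29.9% and 8.64% as FPKM, and 16.9% and 17.4% with median-ratio scaling. Of 32 genes of dolichol-linked glycan assembly, which build the glycan that the oligosaccharyltransferase transfers, 15 (46.9%) were higher in the model and 0 lower. In BBBPH against model 3 (9.38%) were higher and 8 (25%) lower, against 14.2% and 12.2% of all genes tested. Gmppb, which makes GDP-mannose, was at 6.13 ± 0.911 FPKM in BBBPH, 13.03 ± 2 in model and 4.87 ± 1.24 in control libraries (SD, n = 5), with a log2 fold change 1.27 ± 0.14, adjusted p = 1.19e-05 in model against control and a log2 fold change -0.97 ± 0.14, adjusted p = 0.000145 in BBBPH against model. Alg12, a mannosyltransferase, was at 1.96 ± 0.34 FPKM in BBBPH, 4.23 ± 0.375 in model and 1.95 ± 0.34 in control libraries, with a log2 fold change 0.83 ± 0.09, adjusted p = 1.62e-05 and a log2 fold change -0.82 ± 0.09, adjusted p = 2.60e-05 in the same comparisons. In both comparisons these fold changes exceeded in size those of all 53 members tested. Of 16 genes of glycan trimming and lectin folding 8 (50%) were higher and 1 (6.25%) lower in the model. In BBBPH against model 3 (18.75%) were higher and 5 (31.25%) lower. Calr, a lectin chaperone, was at 272 ± 46.1 FPKM in BBBPH, 591 ± 86.2 in model and 275 ± 51.5 in control libraries (model against control 1.11, adjusted p = 5.54e-05; BBBPH against model -1.12, adjusted p = 7.30e-05). Pdia3, the disulphide isomerase that works with it, was at 141 ± 20.5 FPKM in BBBPH, 267 ± 33.5 in model and 143 ± 22.7 in control libraries (model against control 0.90, adjusted p = 7.50e-05; BBBPH against model -0.92, adjusted p = 9.48e-05). Each of these 4 genes kept these calls under median-ratio scaling. The counts in model against control were then 10 (31.2%) higher and 3 (9.38%) lower for glycan assembly, and 4 (25%) higher and 3 (18.8%) lower for trimming and folding.

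Of the 7 lists, vesicle budding, tethering and fusion genes had the largest share called higher in the model, 28 of 49 (57.1%), with 1 lower. That list had 3 (6.12%) higher and 12 (24.5%) lower for BBBPH against model, against 14.2% and 12.2% of all genes tested. For BBBPH against control it had 16 (32.65%) higher and 0 lower, against 24.4% and 3.7%. Tmed3, a p24 receptor, was at 10.7 ± 0.797 FPKM in BBBPH, 17.3 ± 1.3 in model and 9.41 ± 1.71 in control libraries (model against control 0.83, adjusted p = 2.16e-05), and Stx5a, a SNARE of ER to Golgi fusion, at 14.4 ± 0.795 FPKM in BBBPH, 19.9 ± 2.36 in model and 12.5 ± 1.28 in control libraries (model against control 0.62, adjusted p = 5.85e-05). Median-ratio scaling gave 15 (30.6%) higher and 2 (4.08%) lower for that list in the model, against 16.9% and 17.4% of all genes. In BBBPH against control it gave 6 higher and 6 lower (12.2% each), against 8.16% and 9.18%. Of 22 genes of other targeting and insertion routes, 7 (31.8%) were higher and 1 (4.55%) lower in the model, shares near and below those of all genes, led by Caml at 0.43, adjusted p = 0.000293 and Mmgt1 at 0.29, adjusted p = 0.00214, and 3 (13.6%) higher and 4 (18.2%) lower once libraries were rescaled. The remaining oligosaccharyltransferase subunits had 2 of 5 (40%) higher, Tusc3 (0.35, adjusted p = 0.00201) and Magt1 (0.40, adjusted p = 0.00776), the alternative oxidoreductases of the Stt3b form; Magt1 was lower in BBBPH than model libraries (-0.32, adjusted p = 0.0333). Of 20 Golgi glycosyltransferases and mannosidases, 5 (25%) were higher and 3 (15%) lower in the model, the first share below that of all genes and the second above it. Among them Man2a1 fell (log2 fold change -0.47 ± 0.07, adjusted p = 8.90e-05) and St6gal1, which adds sialic acid to plasma glycoproteins, rose (log2 fold change 0.74 ± 0.11, adjusted p = 0.000162). Rescaled by median ratios, that list had 2 (10%) higher and 4 (20%) lower.

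Transcription factors and sensors of secretory capacity had 4 of 11 (36.4%) higher and 0 lower in model against control, against 29.9% and 8.64% of all genes tested. Eif2ak3, the ER stress sensor PERK, was at 3.66 ± 0.474 FPKM in BBBPH, 7.78 ± 0.742 in model and 4.45 ± 1.72 in control libraries (model against control 0.74, adjusted p = 0.00241; BBBPH against model -0.92, adjusted p = 0.000776). Creb3l2, an ER-bound factor known to drive COPII genes in cartilage, was at 2.28 ± 0.651 FPKM in BBBPH, 6.99 ± 1.42 in model and 3.56 ± 1.66 in control libraries (model against control 0.86, adjusted p = 0.00406; BBBPH against model -1.29, adjusted p = 0.000346). Atf6b was higher in the model (0.38, adjusted p = 0.00268). Xbp1 was at 105 ± 23.3 FPKM in BBBPH, 105 ± 26.8 in model and 83.5 ± 23.7 in control libraries and was not called in model against control (0.34, adjusted p = 0.213), with no measure of its spliced form in these values. Atf6 (-0.04, adjusted p = 0.78) and Ern1 (-0.07, adjusted p = 0.706), the other sensors of the unfolded protein response, were not called. Median-ratio scaling gave 3 higher (Eif2ak3, Creb3l2 and Atf6b) and 0 lower for this list in the model.

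**Figure D4:**
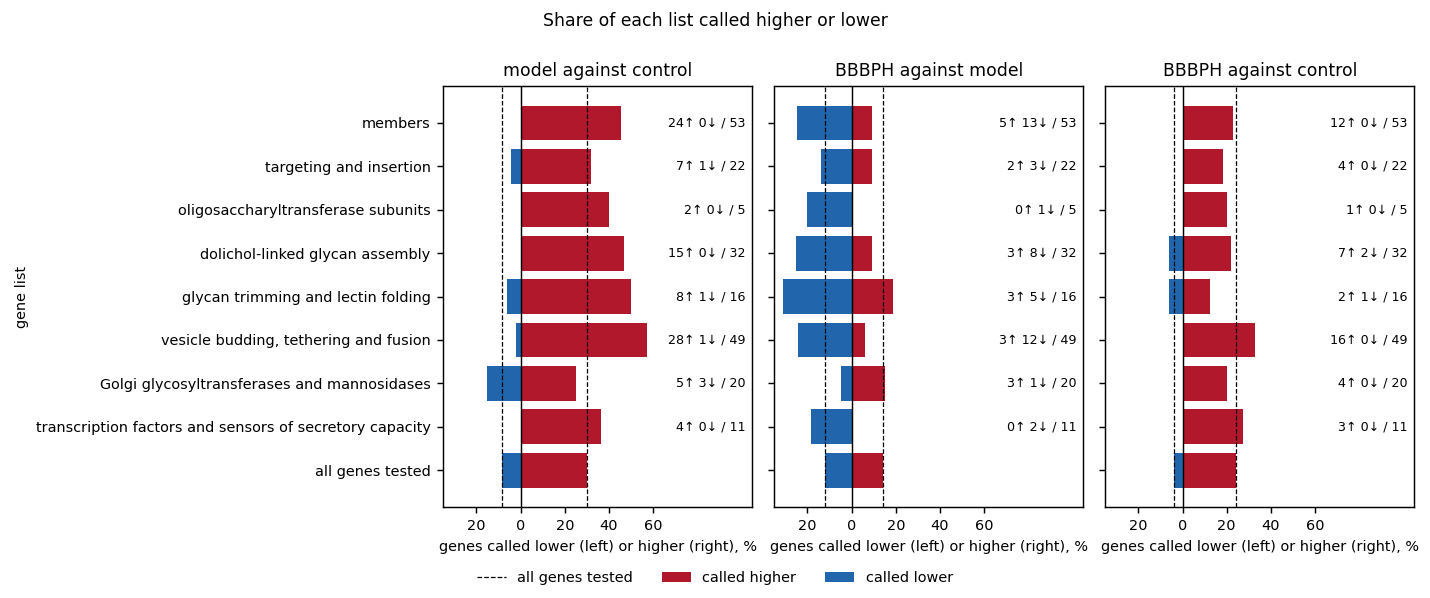
Percentage of the tested genes of each list called lower (blue, to the left of 0) or higher (red, to the right of 0) in model against control, BBBPH against model and BBBPH against control, with the counts written beside the bars. Dashed lines give the share of all 9575 genes tested. The members and every list but the Golgi enzymes extend past the dashed lines to the right in the left panel and to the left in the middle panel. Targeting and insertion passes them only slightly (31.8% and 13.6%, against 29.9% and 12.2% of all genes).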

How the data were processed

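RNA of mouse livers was prepared with TRIzol and a VAHTS Universal V6 library kit, per the labels' protocols. Whether strand was kept is not given in the sources used here. The deposited values are FPKM made by the authors, in 1 column per library without pooling, and 15 single files held the same values (largest difference 0 FPKM). Tools named without roles in the submitters' processing notes are HISAT2, HTSeq, fastp and DESeq2, with the build mm10.

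Depth was recovered from the FPKM, which for 15273 genes were whole multiples of 1 fragment (100% of values within 0.02). The 9575 of 17527 genes that averaged 1 FPKM or more were tested with limma 3.58.1 (R 4.3.3) on log2(FPKM + 1), with 3 group means over 15 libraries, 12 residual degrees of freedom and a mean-variance trend. The 2-sided p-values were adjusted per comparison (Benjamini-Hochberg) and called under 0.05. The pseudocount makes fold changes of low genes smaller. The labels do not say how the livers of a group were sampled, so p-values measure the spread between these samples. Ratios, exact permutation tests and plots used Python 3.11.15, scipy 1.17.1, pandas 2.3.3, matplotlib 3.10.9 and numpy 2.4.6. The limma step was checked on simulated data.

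Members and lists were chosen with earlier results of these data known. Values in all libraries are given for the 2 members of each role with the smallest adjusted p in model against control, the 1 with the smallest in BBBPH against model, and Sec61a1, Sec61b, Stt3a, Stt3b, the Sec24 and Kdelr genes, Lman1 and Mcfd2. Of other lists the 2 of smallest adjusted p are named, with Xbp1, Atf6, Ern1 and Creb3l2. Alternatives changed the pseudocount (0.1), the filter (none, or 5 FPKM), the scale (TPM or median ratios, both computed from the FPKM), the trend, the groups fitted, the block and the libraries left out. A voom fit on recovered counts was added after seeing the data. The 30 pairs of libraries within groups differed by a chi-square per gene of 27.1 to 265, so none was a copy of another. Positions are from GENCODE M21 (GRCm38). Promoters, from RefSeq (GRCm38.p6), matched 43 members by symbol. Protein sequences were not used here.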

Additional observations from a re-analysis of the deposited data

Results flagged for a closer look

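Among the 162 sets of 5 libraries (54 members in 3 groups), 7 held a library far from the other 4, where chance alone gives about 1 in 20 such sets. Model 1_4, which also stood apart in Saa2, was the highest of its group for Ssr4, at 98.2 FPKM against 69.6 to 72.8 in the others, for Rpn2, at 41.4 FPKM against 32.9 to 34.2, and for Ddost, at 56.6 FPKM against 36.3 to 40.2. A link between these values and Saa2 was not tested. BBBPH 3_4 was the lowest of its group for Sec61a1, at 40.4 FPKM against 47.3 to 49.8, and for Sec63, at 22.5 FPKM against 25.9 to 27.0. Control 3_4 was the lowest control library for Srp14, at 34.4 FPKM against 39.5 to 40.5, and control 1_5 the lowest for Sec23a, at 25.7 FPKM against 27.9 to 28.7.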

How the results depend on the processing

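The replicate block, with the replicate number as a fixed effect, gave 5 higher and 0 lower members in model against control. These were 9.43% and 0%, against 10.8% and 2.96% of all genes. For BBBPH against model it gave 1 and 0 (1.89% and 0%, against 1.055% and 2.13%). For BBBPH against control it gave 1 and 0 (1.89% and 0%, against 1.41% and 0.522%). The excess of higher members in model against control and of lower members in BBBPH against model was not seen in this fit. Genes called in all numbered 1315, 305 and 185. A library that alone carries its number has no weight in these comparisons. What the numbers stand for is not given in the sources used here. The residuals of 8 same-numbered pairs had correlations of -0.329 to 0.0239. Whether a number marks a shared cage, litter or batch was not tested. As FPKM without a block, 3692, 2533 and 2691 genes were called. A filter at 5 FPKM (5578 genes tested) gave 2259, 1634 and 1502, and median-ratio scaling called 1660 genes in BBBPH against control. Member counts moved with median-ratio scaling to 11 higher and 5 lower in model against control and 1 higher and 1 lower in BBBPH against control; the cause was not tested beyond its construction, which centres all genes. Against the model, higher BBBPH members numbered 1 with TPM and 2 with 2-group fits, with 2 libraries out and with 3 libraries out (control 2_1 also left out), against 5. One lower member, Ssr4, appeared in model against control with 2 or 3 libraries out and with voom, where the count was 1. With single libraries left out, higher members ranged from 20 to 25, 1 to 6 and 8 to 15, lower members from 0 to 1, 9 to 13 and 0 to 1, and genes called from 3112 to 3761, 2084 to 2647 and 1887 to 2845. The 5 members called higher in the model under every alternative run, the block included, were Mcfd2, Sec23b, Sec24c, Srp14 and Srp68; the 1 called under the block in BBBPH against model was Ssr4, and in BBBPH against control Sec24c. Without control 1_5, the 1 member lower in BBBPH than control libraries was Sec63 (adjusted p = 0.0422). No called fold change of a member reversed. A depth of 35395712 fragments or more put all members but Kdelr3 far above single-fragment levels.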
